A study of Mus musculus with 2 samples.

Results

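Cell cycle and DNA replication genes were followed in the hippocampus of mice fed astaxanthin (ASX), a red carotenoid of the alga Haematococcus pluvialis. The set held 41 genes: G1 cyclins and their kinases, the retinoblastoma family with E2F factors, the machinery that licenses and copies DNA, enzymes of deoxynucleotide synthesis, and genes of mitosis. A gene was included when a probe for mouse transcripts on the arrays carried a RefSeq accession of that gene, which held for 40 of the 41. Of these, 34 were measured, meaning that at least 1 probe passed the scanner software's flag for a signal well above background, for each RNA on each array; the brightest such probe stood for the gene. In all, 23603 genes and transcripts were measured this way, 13318 of them with a gene symbol.

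All mice were male C57BL/6J mice of 11 weeks and 26 to 28 g, housed singly and given 1 week to acclimatize. For 4 weeks the ASX group then ate powdered chow holding 0.5% by weight of a powder with 2% astaxanthin, and the control group (0%) ate the same chow with placebo powder. RNA of the groups was hybridised together on 2 two-colour Agilent arrays. Array 1 had ASX RNA in Cy5 and control RNA in Cy3, and array 2 had the dyes the other way round. The array titles name 4 mice each, and how RNA of different mice was combined is not given in the sources used here. The arrays were therefore taken as 1 replicate, so no test of the diet could be made and no p-value is given. An SD between the arrays (n = 2) holds the error of labelling, dye and hybridisation, and whether it also holds a difference between mice cannot be told. Of the spots for mouse transcripts, 77.8% and 76.7% were well above background for ASX RNA on arrays 1 and 2, and 78.2% and 75.8% for control RNA.

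D-type cyclins with Cdk4 and Cdk6, and then E-type cyclins with Cdk2, phosphorylate the retinoblastoma proteins and free E2F factors, which turn on genes for replication. Cdc6 and Cdt1 then load the Mcm helicase on origins, geminin blocks reloading, and cyclins A and B with Cdk1 carry the cell into mitosis. In the adult hippocampus division is rare: it is known mainly from progenitors of the dentate gyrus, oligodendrocyte precursors and other glial and vascular cells, while mature neurons are postmitotic. Several of the genes, such as Ccnd2, Rb1 and Pcna, are also expressed outside dividing cells. The study asked, by its title, about adult neurogenesis in the hippocampus, which begins with the division of progenitors.

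None of the 34 measured genes differed by much between the diets. All 34 lay within 1.2-fold of equal levels in the mean of the arrays, as 98.6% of all measured genes with a symbol did. With loess scaling the genes with the lowest mean ratios were Ccnb1, Ccnd3, Ccna2, Ccnd1, Ccnb2 and Birc5, and those with the highest were E2f3 and Mcm6, all by small amounts. This order was not kept in full by other scalings. With each array centred on its median, the lowest log2 ratios were those of Ccnd3 (-0.35), Ccnd1 (-0.32) and Pcna (-0.23). By the scanner's own log ratios Rrm2 (-0.34), a dim probe, was lowest, followed by Ccnb1 (-0.31) and Ccnd3 (-0.20). E2f3 (0.18) and Mcm6 (0.16) were still the highest by those ratios. The rule for a higher or lower gene was a difference of 1.5-fold or more (0.58 on the log2 scale) towards the same diet on array 1 and on array 2. By that rule 0 of 34 were higher and 0 were lower, beside 0.0300% of genes with a symbol in each direction and, over all genes and transcripts, 0.0636% higher and 0.0212% lower. At 1.2-fold on each array 0 were higher and 0 were lower too, where 0.233% and 0.330% of genes with a symbol passed. Fewer cells of a kind and less RNA per cell cannot be told apart in RNA from whole tissue.

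**Figure D1:**
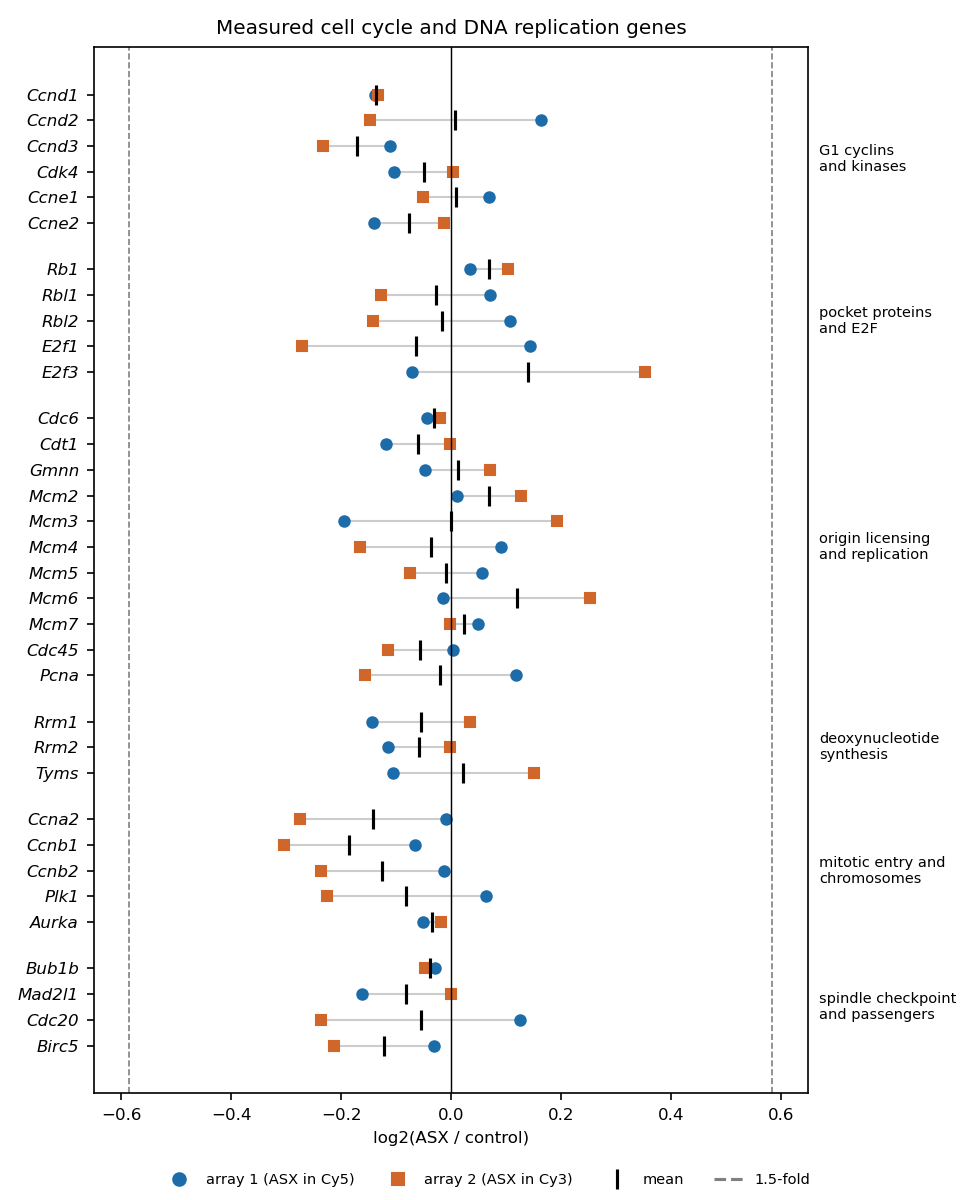
Log2(ASX / control) of the 34 measured genes on array 1 (circles), on array 2 (squares) and in the mean (bars), grouped by role. No gene reaches the dashed 1.5-fold lines. Ccna2, Ccnb1, Ccnb2 and Birc5 lie between -0.066 and -0.0081 on array 1 and between -0.30 and -0.21 on array 2.

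The median log2 ratio (ASX / control) over the 34 was -0.038, from -0.021 on array 1 and -0.049 on array 2, beside -0.019 over genes with a symbol. Mean ratios ran from -0.18 for Ccnb1 to 0.14 for E2f3. Log2 ratios were below 0 on both arrays for 13 genes (38.2%), above 0 on both for 2 (5.88%), and of opposite signs for 19. Among genes with a symbol the shares were 26.4% below, 14.3% above and 59.3% of opposite signs. On array 1 alone 20 members (58.8%) were below 0, beside 57.0% of genes with a symbol, and on array 2 alone 25 (73.5%), beside 55.1%. The members' larger share below 0 was not kept by other scalings. By the scanner's own log ratios 8 members (23.5%) lay below 0 on each array, beside 27.1% of genes with a symbol, and after median centring 17 (50%), beside 61.4%. Centring in place of loess used each array's median over all spots for mouse transcripts, dim ones included, so the measured genes need not centre on 0. It moved the median of all measured genes and transcripts from -0.0042 to -0.10, and that of genes with a symbol to -0.16. The members' median was then -0.11, so it lay 0.049 above the median of genes with a symbol, where with loess it lay 0.019 below it. By the scanner's log ratios the members' median (-0.042) lay 0.019 below that of genes with a symbol (-0.023), as with loess. The place of the set against other genes thus changed side with median centring but not with the scanner's log ratios.

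**Figure D2:**
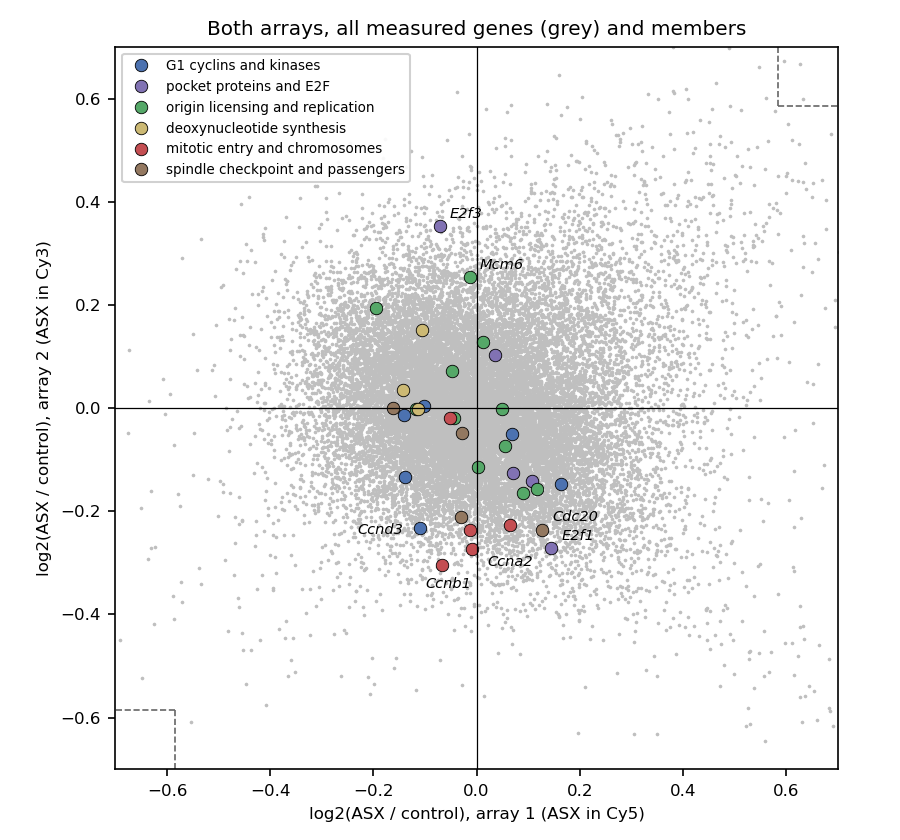
Log2(ASX / control) on array 2 against array 1 for all measured genes and transcripts (grey; points beyond 0.7 are not drawn) and for the 34 members, coloured by role. The members lie inside the grey cloud, and none is in the dashed corners, where a gene is at least 1.5-fold apart in 1 diet direction on each array.

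Of the 8 G1 cyclins and kinases, 6 were measured. Ccnd1, the gene of cyclin D1, had log2 signals of 11.26 for ASX and 11.40 for control RNA on array 1 and of 10.75 and 10.88 on array 2. Its log2 ratios, -0.14 and -0.13, were the closest pair among the 34 genes (mean -0.14, SD 0.0035). Its probe was printed in 10 spots per array, with SDs over spots of 0.026 and 0.038, and all spots were below 0 on each array, from -0.18 to -0.089 and from -0.20 to -0.068. On an array these spots share 1 RNA sample per diet, and they are no replicates of the diet. Ccnd3, the gene of cyclin D3, was lower in the ASX RNA on both arrays too, with -0.11 and -0.23 (mean -0.17, SD 0.087), a mean ratio of 0.888.

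The third D-type cyclin gene, Ccnd2, which is known to be needed for division of adult hippocampal progenitors, had 0.16 on array 1 and -0.15 on array 2. The arrays thus disagreed in sign for its brightest probe, while its other probes, given further on, were below 0 on both. Cdk4, the kinase partner of the D cyclins, had -0.10 and 0.0035. Of the cyclins that partner Cdk2, Ccne1 had 0.069 and -0.051 and Ccne2 had -0.14 and -0.013. Ccnd1, Ccnd3 and Cdk4 kept means below 0 with a smaller background offset (16), with no background correction, with median centring and by the scanner's log ratios. The median of genes with a symbol was itself below 0 under each of these settings, at -0.16 with median centring.

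All 5 genes of the retinoblastoma family and E2F factors were measured, and 4 of them had opposite signs on the arrays. Rb1, the gene of the retinoblastoma protein, was above 0 on both, with 0.035 and 0.10 (mean 0.069, SD 0.049). Its probe had 10 spots, with SDs over spots of 0.032 and 0.039. The related pocket protein genes had 0.071 and -0.13 (Rbl1, encoding p107) and 0.11 and -0.14 (Rbl2, encoding p130).

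The E2F genes were the least reproducible of the set. E2f1, an activator of S phase genes, had 0.14 on array 1 and -0.27 on array 2, an SD of 0.29 about a mean of -0.064. E2f3, another activator, went the other way, with -0.072 and 0.35 (SD 0.30) about the highest mean of all members, 0.14. Neither mean exceeds the SD between the arrays. Over the 34 genes the SD between arrays ran from 0.0035 to 0.30 with a median of 0.12, close to the 0.11 of all genes with a symbol.

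Origin licensing and replication held 11 genes, all measured, with a median of -0.0093. Mcm6, a subunit of the hexameric Mcm helicase that unwinds DNA at the fork, had log2 signals of 12.06 (ASX) and 12.08 (control) on array 1 and of 11.75 and 11.49 on array 2. Its ratios were -0.014 and 0.25 (mean 0.12, SD 0.19), the highest mean of this group. Mcm2, another subunit, was the one gene of the group above 0 on both arrays, with 0.012 and 0.13. The other subunits did not share a direction.

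Mcm3 had -0.19 and 0.19, which cancel in the mean. Mcm4 had 0.091 and -0.16, Mcm5 0.056 and -0.074, and Mcm7 0.049 and -0.0011. The 6 subunit genes of 1 complex thus had means from -0.037 (Mcm4) to 0.12 (Mcm6), and their arrays disagreed in sign for all but Mcm2.

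The loading factor genes Cdc6 (-0.044 and -0.019) and Cdt1 (-0.12 and -0.0022) were below 0 on both arrays, the second by almost nothing on array 2. Gmnn, the gene of the Cdt1 inhibitor geminin, had -0.047 and 0.072. Cdc45, a component of the active helicase, had 0.0035 and -0.11. Pcna, the gene of the sliding clamp of DNA polymerases, had 0.12 on array 1 and -0.16 on array 2. Its 10 spots agreed closely on each array (SDs of 0.026 and 0.029; 0.089 to 0.16 on array 1, -0.19 to -0.100 on array 2), so for Pcna the arrays differed by more than the spread between spots. No gene of the group was past 1.2-fold in the mean.

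Promoters of 33 of the 41 genes, 36 sequences in all, were matched by symbol in a RefSeq table of build GRCm38.p6, and the 250 bases before each start were searched on both strands. The motifs were TTTNNCGC for E2F, TTTGAA or TTCGAA for the cell cycle homology region (CHR), and CCAAT, the box bound by NF-Y; matches may overlap one another. An E2F match stood in 25.0% of the members' promoters and 4.28% of all 32851 promoters in the table, a CHR match in 30.6% and 17.1%, and a CCAAT box in 63.9% and 33.8%. A match is a description of the letters and not evidence of binding. The promoters of Mcm5 (chr8:75109259-75109508, plus strand) and Mcm6 (chr1:128359706-128359955, minus strand) show the E2F class, with E2F matches and CCAAT boxes on either strand in capitals; each holds 2 CCAAT boxes. They are shown because these subunits hold 2 and 3 E2F matches in their windows, the most upstream pair of each overlapping.
Mcm5: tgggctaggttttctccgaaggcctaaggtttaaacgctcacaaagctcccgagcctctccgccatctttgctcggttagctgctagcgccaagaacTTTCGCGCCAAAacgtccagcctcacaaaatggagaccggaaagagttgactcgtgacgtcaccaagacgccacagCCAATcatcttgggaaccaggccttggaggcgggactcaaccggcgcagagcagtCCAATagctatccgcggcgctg
Mcm6: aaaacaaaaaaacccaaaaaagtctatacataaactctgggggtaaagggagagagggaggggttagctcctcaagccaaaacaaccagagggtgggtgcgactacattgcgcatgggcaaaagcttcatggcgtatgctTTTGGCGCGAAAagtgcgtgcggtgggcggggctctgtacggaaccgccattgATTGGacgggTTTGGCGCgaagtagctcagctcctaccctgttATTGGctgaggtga

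All 3 genes of deoxynucleotide synthesis were measured. Rrm1 and Rrm2 encode the large and small subunits of ribonucleotide reductase. Rrm1 had -0.14 on array 1 and 0.035 on array 2, and Rrm2 -0.11 and -0.0020. Tyms, the gene of thymidylate synthase, had -0.11 and 0.15. The group was thus below 0 throughout on array 1 and on both sides of it on array 2, with a median of -0.054.

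Genes of mitotic entry had a median of -0.13 over the 5 measured of 8, the lowest of the 6 roles with loess and both arrays. This rank was not kept: after median centring the G1 genes were lower (-0.21 against -0.13), and by the scanner's log ratios the spindle checkpoint genes were (-0.11 against -0.096). On array 1 alone the median was -0.013, above those of the deoxynucleotide (-0.11), G1 (-0.11) and spindle checkpoint (-0.029) genes. Ccnb1, the gene of cyclin B1, had log2 signals of 7.17 (ASX) and 7.23 (control) on array 1 and of 6.75 and 7.05 on array 2. Its ratios were -0.066 and -0.30 (mean -0.18, SD 0.17), a mean ratio of 0.880. Ccna2, the gene of cyclin A2, had -0.0081 and -0.27 (mean -0.14, SD 0.19). Ccnb2, the gene of cyclin B2, had -0.013 and -0.24 (mean -0.13, SD 0.16). The 3 cyclin genes were below 0 on both arrays, and most of each mean came from array 2, where the ASX RNA carried Cy3. The kinase genes were Plk1, with 0.064 and -0.23, and Aurka, with -0.051 and -0.019.

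The group's median was below 0 under each setting that used both arrays, from -0.50 after a shift by spike-in RNAs to -0.081 without a brightness filter. The median of genes with a symbol was below 0 under each of these settings too, at -0.40 after the spike-in shift. After median centring it was -0.16, below the group's -0.13. The count of genes below 0 on both arrays depended on the processing: it was 4 of 5 here and 1 of 5 with the scanner's log ratios or without background correction. The means of all 5 genes stayed below 0 with the smaller offset, with no background correction, with median centring and by the scanner's log ratios. As the SD of the 3 cyclin genes between arrays is as large as their means or close to it, the ratios do not stand clear of the spread between arrays.

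Promoters are printed for both B-type cyclins and for their partner Cdk1, which was not measured. With loess the B-type cyclins have the lowest ratios among members with a promoter in this group, but not after median centring. They lie on the minus strand at chr13:100786487-100786736 (Ccnb1), chr9:70421555-70421804 (Ccnb2) and chr10:69352913-69353162 (Cdk1) of GRCm38.p6. Capitals mark CCAAT boxes, CHR matches and E2F matches on either strand. Ccnb1 holds 2 CCAAT boxes and Ccnb2 holds 3, with 1 CHR match, while Cdk1 holds 3 CCAAT boxes, 2 CHR matches and 2 E2F matches. All 7 promoters of this role held a CCAAT box.
Ccnb1: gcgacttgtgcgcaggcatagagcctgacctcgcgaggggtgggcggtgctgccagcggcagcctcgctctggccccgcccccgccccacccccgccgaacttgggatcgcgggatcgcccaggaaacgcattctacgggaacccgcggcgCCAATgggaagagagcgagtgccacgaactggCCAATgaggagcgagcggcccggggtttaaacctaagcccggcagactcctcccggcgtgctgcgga
Ccnb2: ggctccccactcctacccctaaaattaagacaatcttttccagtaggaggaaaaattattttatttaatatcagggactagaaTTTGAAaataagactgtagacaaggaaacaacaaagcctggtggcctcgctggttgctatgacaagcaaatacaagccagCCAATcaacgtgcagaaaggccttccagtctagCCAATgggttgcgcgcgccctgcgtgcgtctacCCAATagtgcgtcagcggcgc
Cdk1: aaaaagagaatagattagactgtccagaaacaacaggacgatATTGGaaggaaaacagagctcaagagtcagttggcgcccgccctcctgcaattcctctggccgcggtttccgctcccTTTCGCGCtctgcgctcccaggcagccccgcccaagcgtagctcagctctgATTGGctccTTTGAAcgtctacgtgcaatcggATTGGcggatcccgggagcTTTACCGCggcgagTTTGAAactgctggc

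Of 6 genes of the spindle checkpoint and the chromosome passenger complex, 4 were measured, with a median of -0.068. Birc5, the gene of the passenger protein survivin, had -0.030 and -0.21 (mean -0.12, SD 0.13). Cdc20, which activates the anaphase-promoting complex, had 0.13 and -0.24. Of the checkpoint genes, Bub1b had -0.029 and -0.048 and Mad2l1 -0.16 and -0.00060. Thus 3 of the 4 were below 0 on both arrays, but 1 of 4 was with the scanner's log ratios or with median centring. Of genes with a symbol 26.4% were below 0 on both arrays with loess, 27.1% by the scanner's log ratios and 61.4% after median centring. Bub1b had a mean above 0 by the scanner's log ratios and after median centring, up to 0.035.

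Cdk1, Cdk2, Cdk6, Top2a, Bub1 and Aurkb were not measured, and for Mki67 no probe carried a RefSeq accession of the gene. The 10 probes of these 6 genes had net intensities (median spot signal minus local background) of at most 43, beside medians of 7 to 15.5 over the 153 negative control spots of each signal. Cdk1, the mitotic kinase, was well above background on array 2 alone, in 1 of its 2 probes, with net intensities of 34.5 for ASX and 43 for control RNA. Bub1, a checkpoint kinase, passed on array 1 alone, with 29 and 40.5, and Top2a, the topoisomerase that untangles chromosomes, for the control RNA of array 1 alone, with 35. No probe of Cdk2, Cdk6 or Aurkb passed for either RNA on either array. The largest net intensity in a negative control spot was 135. Of the measured members 8 were also below that value in all 4 signals, namely Bub1b, Ccnb1, Ccne2, Cdc45, Cdc6, Mcm3, Rbl1 and Rrm2, so their ratios rest on dim probes; Ccnb1 ran from 57 to 110 and Rrm2, the dimmest, from 39.5 to 71.5. For Top2a and Cdk1, both widely used marks of dividing cells, a difference was not detectable at this brightness, and Mki67 gave no value of any kind.

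**Figure D3:**
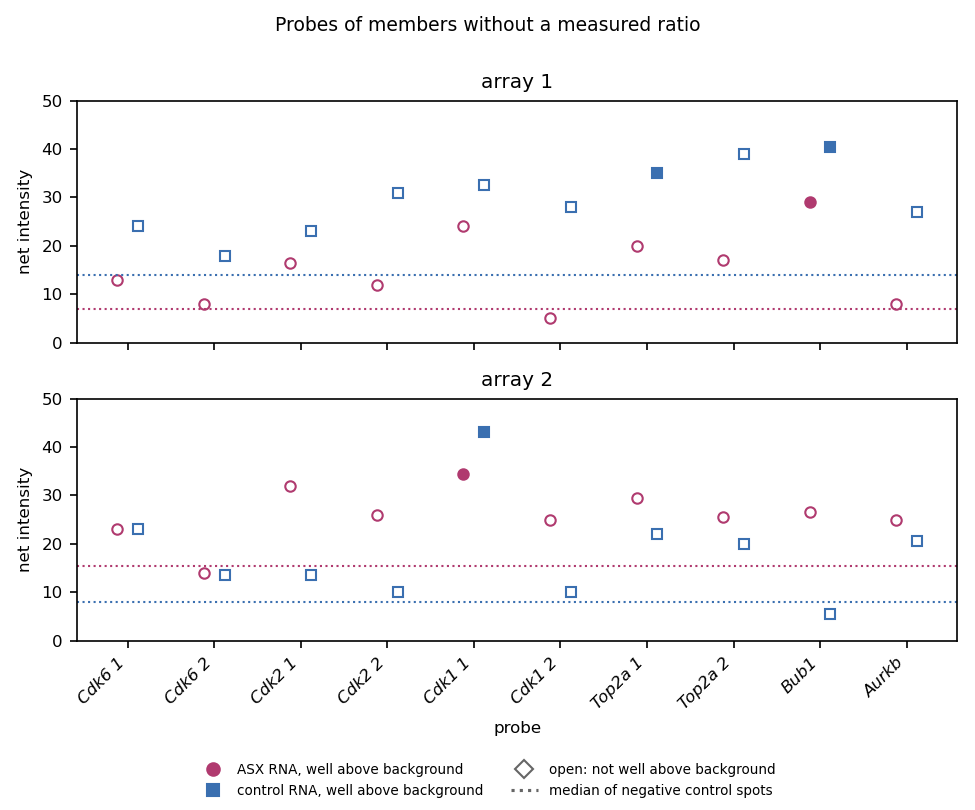
Net intensity of the 10 probes of Cdk6, Cdk2, Cdk1, Top2a, Bub1 and Aurkb on each array, for ASX RNA (circles) and control RNA (squares); filled symbols are well above background. Dotted lines give the median of the negative control spots for each RNA, from 7 to 15.5. The probe labelled Cdk1 1 is filled on array 2 and that of Bub1 on array 1.

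For 9 members more than 1 probe was measured, and the probes agreed in the sign of the mean in 5. Ccnd2 had 3. Its brightest probe had 0.16 and -0.15, while the others had -0.091 and -0.17, and -0.18 and -0.15, so the gene would count as below 0 on both arrays by either of those. E2f3's other probe had -0.045 and -0.096, opposite in mean to its brightest, the widest gap of all 9 (0.21). E2f1's other probe, with 10 spots, had -0.19 and -0.042, closer together than its brightest. The other Rbl2 probe had -0.11 and -0.21, and the other Cdc6 probe -0.17 and -0.11.

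Both Rb1 probes were above 0 on both arrays, the other at 0.011 and 0.24. Ccne1 and Tyms also had probes with means on either side of 0. When all measured probes of a gene were averaged, 17 of the 34 genes lay below 0 on each array and 2 above it on each, and their median was -0.054. This made 50% of the members below 0 on each array, beside 27.8% of genes with a symbol, whose median was -0.019. Choosing the brightest probe thus gave fewer genes below 0 than averaging did. The other Ccnb1 probes were not well above background for any RNA.

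**Figure D4:**
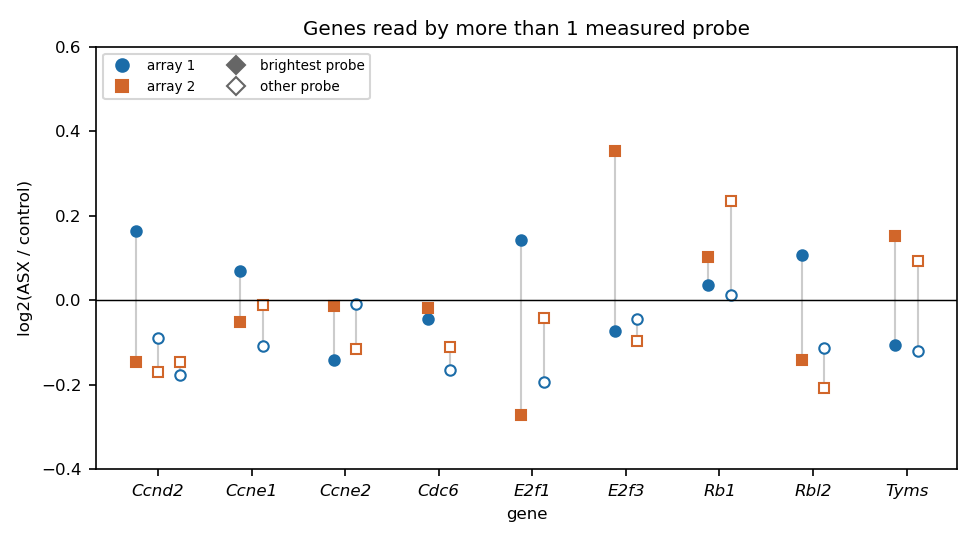
Log2(ASX / control) on array 1 (circles) and array 2 (squares) for the 9 genes with more than 1 measured probe; filled symbols are the brightest probe and open symbols the others. For Ccnd2, E2f1 and Rbl2 the filled symbols straddle 0 and the open ones lie below it.

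A wider set of 116 cell cycle genes that are not members was looked at in 8 lists, and 100 were measured. By the 1.5-fold rule 0 were higher and 0 lower, and at 1.2-fold 0 were higher and 1, Cdkn1a, was lower. Their median was -0.036, 36 were below 0 on each array and 7 above on each, close to the members' own shares. Genes with a symbol had a median of -0.019, with 26.4% below and 14.3% above. These counts hold for loess, and those of each list changed after median centring. Among origin and helicase loading genes (11 measured) Dbf4, the activating subunit of the Cdc7 kinase, had -0.12 and -0.020, and Mcmbp, which binds Mcm proteins, 0.047 and 0.054. Among polymerase and fork genes (25 measured) Pole2 had -0.12 and -0.15 and Tipin 0.12 and 0.17. Of E2F and DREAM complex genes (11) Lin52 had -0.28 and -0.0039 and E2f6 -0.050 and -0.19.

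The list of mitotic kinase, spindle and kinetochore genes had 7 of 15 measured genes below 0 on both arrays and 0 above. Of genes with a symbol 26.4% were below and 14.3% above. By the scanner's log ratios the list had 9 below and 0 above, where 27.1% of genes with a symbol were below. After median centring it had 7 below and 4 above, and its median was -0.050, beside -0.16 over genes with a symbol. Kif20a, a kinesin of the late spindle, had -0.22 and -0.17, and Kif11, the kinesin that separates spindle poles, -0.15 and -0.078. Of 15 genes of the anaphase-promoting complex and chromosome separation, Ube2c, its ubiquitin-conjugating enzyme, had -0.33 and -0.070, and Anapc1, its largest subunit, 0.21 and 0.024. Cohesin and condensin genes (9) had a median of -0.0011, with Smc2 at -0.063 and -0.0096 and Smc3 at -8e-04 and -0.0059. Of 8 regulators of cyclin-dependent kinases, the phosphatase gene Cdc25a had -0.27 and -0.062, and the inhibitory kinase gene Wee1 0.028 and 0.10.

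Among the inhibitors of cyclin-dependent kinases, Cdkn1a, the gene of p21, stood apart. It had -0.55 and -0.61 (mean -0.58, SD 0.039), just short of 1.5-fold on array 1. With the scanner's log ratios (-0.68), median centring (-0.68) or the spike-in shift (-0.96) it passed the 1.5-fold rule. Cdkn2b, the gene of p15, had -0.29 and -0.13. No member lay as far from 0 as Cdkn1a on either array.

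**Figure D5:**
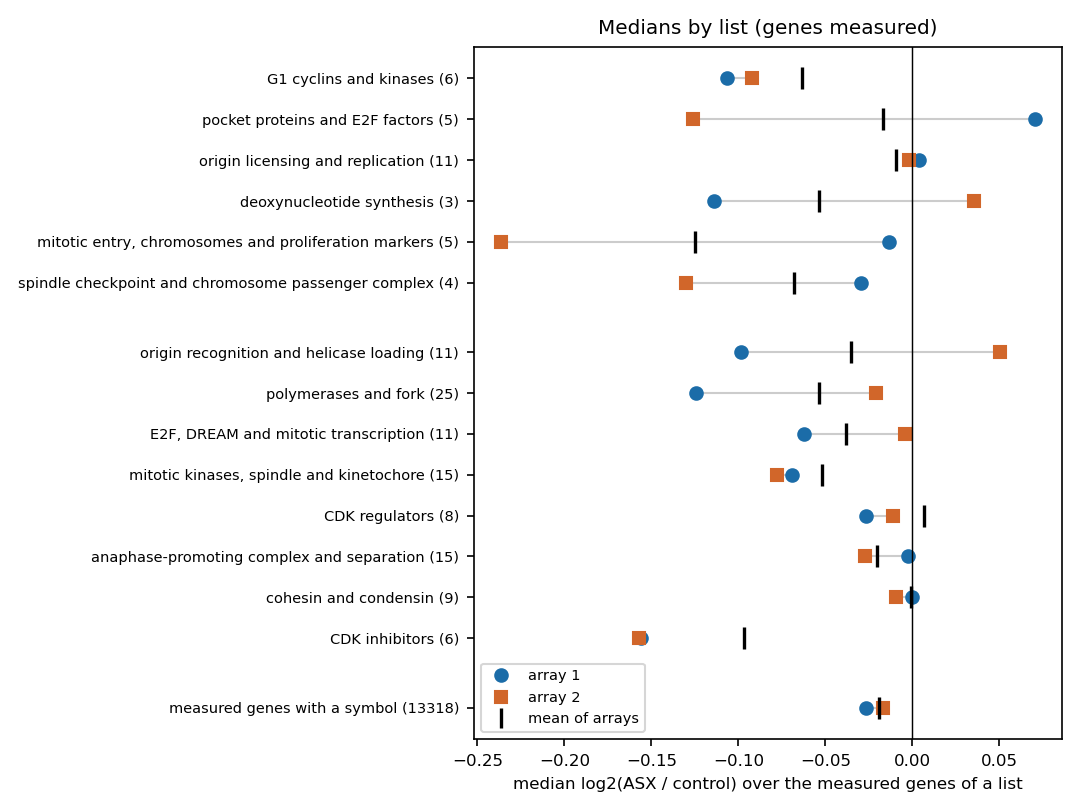
Median log2(ASX / control) over the measured genes of each role of the members (top 6), of the other cell cycle lists (next 8) and of all measured genes with a symbol (bottom), on array 1 (circles), array 2 (squares) and in the mean of the arrays (bars); the number of genes measured is in brackets. Genes of mitotic entry have the lowest median of the means with this scaling, at -0.13, but not after median centring or by the scanner's log ratios, and all medians on single arrays lie between -0.24 and 0.071.

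Markers of the tissue were present: all 4 granule cell markers (Prox1, Calb1, C1ql2 and Tdo2) and all 5 pyramidal cell markers with a named probe were measured. Of the 4 granule cell markers 3 were above 0 on both arrays and 0 below (median 0.099), and of the pyramidal ones 0 and 0 (median 0.023). Among genes with a symbol 26.4% were below 0 on each array and 14.3% above, which the small lists that follow are to be read against. Markers of stem, precursor, glial and vascular cells had medians of -0.069 for neural stem cells (3 of 8 measured below 0 on both arrays, 0 above), -0.059 for neuroblasts (4 of 8 and 1), -0.096 for oligodendrocyte precursors (3 of 5 and 0), -0.058 for microglia (3 of 6 and 0) and -0.070 for endothelial cells (2 of 6 and 0). Markers from outside the hippocampus differed more. All 4 measured anterior pituitary genes of 5 were above 0 on both arrays, with means from 0.45 (Pomc) to 1.62 (Prl) and 2 past the 1.5-fold rule. Of 6 neutrophil genes S100a8 (0.65) and S100a9 (1.27) were measured and passed the rule, while Ngp, Camp, Ltf and Mmp8 did not pass the background flag in all 4 signals. Of 7 meningeal genes 5 were above 0 on both arrays (median 0.21). Below 0 on both were 4 of 5 measured striatal markers (median -0.19) and 3 of 5 thalamic ones (-0.16). Calb2 (-0.25 and -0.071) is in both the neuroblast and the thalamic list and is counted in each. The part of these cells and tissues in the members' ratios was not tested.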

How the data were processed

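Agilent Feature Extraction 11.0.1.1 produced the values, per the file headers. A spot's deposited intensity used here is the median of its pixels in each dye, not normalized, with the median of its local background. The deposited log ratio is log10 of Cy5 over Cy3 from signals that the scanner software background-subtracted and dye-normalized, per the file headers. The deposited value table has no stated scale or direction; its values matched those log10 ratios, with column medians of 0.0050 and 0.0083. From the median intensities, background was corrected with limma 3.58.1 (normexp, offset 50), loess was run within each array (control spots had weight 0), and ratios were turned to log2(ASX / control). Control spots (1639 of 45018) and 3 outlier spots were left out and 0 were saturated. Spots of a probe were averaged, which gave 41171 probes. Accessions were named through a RefSeq table of GRCm38.p6 (23372 probes matched 1 symbol, 0 several); the array was designed on another build, so no probe positions are given. A gene took its brightest probe among the 30078 (73.1%) that passed the background flag in all 4 signals. The log2 signals of the RNAs include the offset and are not comparable between probes. Averaging and calling were tested on simulated dye swaps.

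The members and lists were chosen with earlier results of these data known. Every measured member is given; from each other list up to 2 genes with the largest mean among those of 1 sign on both arrays are named, and markers as listed. Cdkn1a and the lists give no independent support. Alternatives covered background, scaling, filter, probe choice, single arrays and the fold. The number of arrays limits the precision.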

Additional observations from a re-analysis of the deposited data

How the results depend on the processing

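No member passed the 1.5-fold rule in either direction under any of the 12 alternatives run. The median of the members, -0.038, was -0.11 with median centring (all genes and transcripts: -0.10) and -0.42 after a shift of both arrays by the spike-in RNAs (10 probes, 0.38 on the log2 scale; all genes and transcripts: -0.38). On single arrays it ran from -0.049 to -0.021. The 13 members below 0 on both arrays were 8 with the scanner's log ratios and in the value table (23.5%, beside 27.1% of genes with a symbol), 34 after the spike-in shift (beside 98.3%), and 20 to 25 on single arrays, where 1 array alone decides the sign. The 2 above 0 on both were 4 with the scanner's log ratios, in the value table and without a brightness filter, 0 after the spike-in shift and 9 to 14 on single arrays. The value table holds the scanner's own ratios, so it is no separate check. The cause of these shifts was not tested. Over the 5 settings that recompute ratios from both arrays (smaller offset, no background correction, median centring, scanner log ratios, mean over probes), 18 of the 34 genes stayed below 0, E2f3 stayed above and 15 did neither. That count was not made over all genes with a symbol. Their own median was below 0 in each of these settings, at -0.16 after median centring. The 18 are therefore not read as a lean of the members. The spike-in shift lowers every gene by construction. Over all genes and transcripts, 15 were higher and 5 lower here, 71 and 12 by the scanner's log ratios, 12 and 12 after median centring and 3 and 154 after the spike-in shift. No paired analysis was possible because the arrays were taken as a dye swap of 1 RNA pair, which leaves 1 replicate.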

Other observations

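Across the 34 measured members, which share the arrays, the log2 ratios of array 1 and array 2 had a Pearson correlation of -0.42, and across all genes with a symbol it was -0.25. The 6 measured members with an E2F match in their promoter window had a median log2 ratio of 0.0073, with 1 below 0 on both arrays. The 21 with a promoter and no match had a median of -0.055, with 9 below 0 on both. Of genes with a symbol 26.4% were below 0 on both. For CCAAT boxes the medians were -0.038 with a match (17 members) and -0.041 without (10), and for CHR matches -0.028 (8) and -0.050 (19). The split by motif was made with the ratios known and is given for loess only, as a description with no test.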
